A study of Homo sapiens with 23 samples.

Results

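The comparison described here sets SUDHL5 cells kept for 4 h with 30 nM CDK-TCIP1 against the same cells kept with it for 2 h. It rests on 7 of the 23 libraries of the series, chosen by their titles: 3 harvested at 4 h and 4 harvested at 2 h. SUDHL5 is an established line grown from a human diffuse large B-cell lymphoma of the germinal centre subtype. Controls of matched dose and time were the comparison compounds Neg1 and Neg2 at 30 nM, with 2 libraries of each at 2 h and 2 of each at 4 h, treated together as 4 control libraries at either time. How the structures of Neg1 and Neg2 differ from CDK-TCIP1 is not given in the labels. CDK-TCIP1 at 100 nM for 2 h (3 libraries) gave a second reading of the early change, and vehicle (0.1% DMSO, 3 libraries) was harvested at 4 h. All groups carried 0.1% DMSO. The labels do not say that replicates were separate cultures, so p-values measure the spread between these libraries, which may be technical. The question was which genes moved by 2 h and then went back, and which changed for the first time between 2 and 4 h.

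CDK-TCIP1 joins a ligand of BCL6 to a ligand of CDK9. BCL6 is a repressor that holds down cell cycle arrest, DNA damage and apoptosis genes in germinal centre B cells. CDK9 is the kinase of P-TEFb, which phosphorylates RNA polymerase II and its pausing factors so that transcription elongates. When CDK9 is inhibited, mRNAs with a short life, such as MYC, MCL1 and the immediate early genes, are usually the first to fall.

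Library totals of the 7 libraries ran from 19754750 to 26373153 estimated counts. On principal components of log2 CPM (counts scaled to a common library total), the first component took 27.6% of the variance and held both times of CDK-TCIP1 together, at 33.6 to 43.0, against -43.4 to -36.4 for Neg1, Neg2 and DMSO. The second took 8.26%, and on it the 4 h libraries lay at -46.5 to -41.0 and the 2 h libraries at -1.50 to 4.42. A library of 100 nM (replicate 1) and a library of Neg2 at 2 h (replicate 1) stood apart from their groups. Without that pair 4272 genes were called between 2 and 4 h, against 3888 with it. The share of counts in mitochondrially encoded genes was taken over all tested symbols that begin with MT-, not only mRNAs. After CDK-TCIP1 it was 6.6 to 7.05% at 2 h and 6.81 to 7.16% at 4 h. In Neg1 and Neg2 it was 5.53 to 6.72% at 2 h, which overlaps, and 5.53 to 5.67% at 4 h, which does not. The part of this share in the results was not tested. Levels in CPM are relative to the other genes of a library. Library scaling factors (TMM) were 0.9617 to 0.9865 at 2 h and 1.009 to 1.014 at 4 h of 30 nM CDK-TCIP1. They were 1.018 to 1.041 in Neg1 and Neg2. Rises and falls below are therefore relative, and a change in total mRNA per cell was not tested.

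Between 2 and 4 h of CDK-TCIP1, 3888 of 17743 genes changed (21.9%), 1828 higher (10.3%) and 2060 lower (11.6%), by the edgeR quasi-likelihood test with Benjamini-Hochberg adjusted p under 0.05, the rule for every call below. Most changes were small: 96 rises and 124 falls were at least 2-fold. Over the same interval no gene was called in Neg1 and Neg2 by edgeR, with 1394 genes at an unadjusted p under 0.05 and 9 genes called by DESeq2. For 2126 genes (12%) the change with time after CDK-TCIP1 differed from that in Neg1 and Neg2 by a test of the difference itself, toward higher values in 996 (5.61%) and lower ones in 1130 (6.37%). The 2 h and 4 h libraries did not overlap in CPM for 5204 genes (29.3%). Against their own controls, 6582 genes (37.1%) were called at 2 h and 6780 (38.2%) at 4 h, of which 3282 were higher (18.5%) and 3498 lower (19.7%). Against DMSO at 4 h it was 6535 (36.8%), 3113 higher (17.5%) and 3422 lower (19.3%). In counts scaled by transcript length, 1515 genes were called between 2 and 4 h in place of 3888, although 98.1% of the called genes that could be tested kept their sign and none was called with the opposite one.

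A changed gene was placed in a class where the test against Neg1 and Neg2 over time was also passed, with the same sign, which held for 1951 of the 3888. A gene was recovering where it had been called at 2 h on the other side (685 genes, 3.86% of those tested), growing where it had been called at 2 h on the same side (469, 2.64%), and late where it was not called at 2 h and was called at 4 h (773, 4.36%). The remaining 24 (0.135%) were not placed, 11 that rose (0.062%) and 13 that fell (0.0733%). Of the late genes, 622 were flat at 2 h, with an unadjusted p of at least 0.05 and a change of less than 0.25 on the log2 scale. The sizes of the classes are not firm, since they follow the number of controls and the scaling of the counts. With Neg1 alone as control the classes held 318, 249 and 507 genes, and in counts scaled by transcript length 114, 101 and 215, in the order recovering, growing and late.

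**Figure D1:**
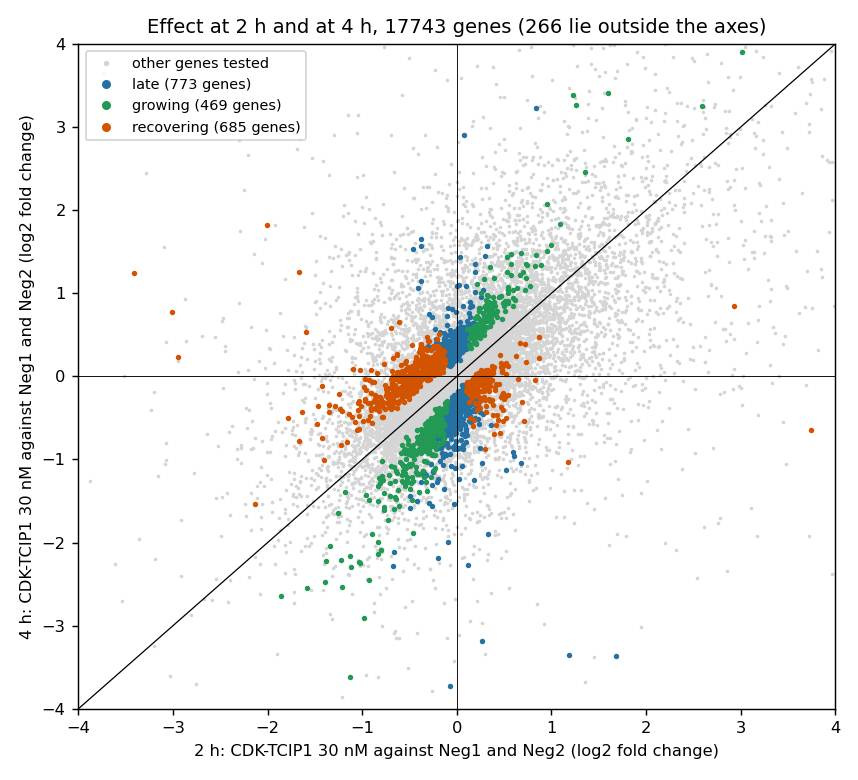
Log2 fold change of CDK-TCIP1 30 nM against Neg1 and Neg2 at 2 h (x axis) and at 4 h (y axis), 1 point per gene, with recovering (685), growing (469) and late (773) genes in colour and all other genes tested in grey. The diagonal line marks an equal effect at both times, and 266 of 17743 genes lie outside the axes. The classes are cut by these same values, so their places in the plot are a description.

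Recovery was the smaller share of the early response. Of the 3189 genes that were lower at 2 h (18%), 2025 (63.5%) were lower at 4 h, 1096 (34.4%) were no longer called and 68 were higher. Among 3393 genes that were higher at 2 h (19.1%), 1959 (57.7%) were higher at 4 h, 1372 (40.4%) were no longer called and 62 were lower. These effects at 2 h and at 4 h share no library, but the loss of a call is not a tested change. In the test from 2 to 4 h, which uses the 2 h libraries again, 824 of the 3189 rose and 542 fell. Of the 3393, 446 fell and 310 rose in that test. Of all 6582 early genes, 4460 (67.8%) showed no call between 2 and 4 h. The recovering class itself shares the 30 nM 2 h libraries between its early call and its later one, so a chance deviation in them counts toward both. The 100 nM libraries are free of this, and called 7959 genes against Neg1 and Neg2 (44.9%). Of 4056 genes lower at 100 nM and 2 h (22.9%), 1135 (28%) rose from 2 to 4 h at 30 nM and 462 (11.4%) fell, against 10.3% and 11.6% of all genes. Of 3903 genes higher at 100 nM (22%), 688 (17.6%) fell and 223 (5.71%) rose. Of the 974 genes at least 2-fold lower at 100 nM, 251 (25.8%) rose and 25 (2.57%) fell, and their median effect at 30 nM was -0.82 at 2 h and -0.52 at 4 h on the log2 scale. Among the 1005 genes at least 2-fold higher at 100 nM, 27 (2.69%) rose and 40 (3.98%) fell at 30 nM, and their median effect at 30 nM was 1.62 and 1.36.

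Genes that had dropped and then rose again made up 459 of the recovering class (2.59%). Their median effect was -0.44 at 2 h and 0.01 at 4 h. Of these, 301 were no longer called at 4 h, 91 were still below Neg1 and Neg2 and 67 had passed above them. KLHL25, an adaptor of a ubiquitin ligase (chromosome 15, 85759323 to 85795030, ENSG00000183655, GRCh38), lay at 10.4 to 14.9 CPM in Neg1 and Neg2 at 2 h. With CDK-TCIP1 it stood at 4.04, 3.49, 3.59 and 3.41 CPM at 2 h and at 7.91, 8.55 and 7.44 CPM at 4 h. All 3 late libraries were below every control. They were also above all 4 early ones, but such separation was required of genes named for the largest changes of a class. The log2 change from 2 to 4 h was 1.13 ± 0.13 (± SE, adjusted p = 1.17e-06, edgeR), after an early effect of -1.78 ± 0.12, and left -0.51 ± 0.13 at 4 h.

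The stress gene DDIT4, an inhibitor of mTORC1 (chromosome 10, 72273920 to 72276036), showed the same course at a higher level. Its values were 45.5, 38.2, 33.2 and 39.4 CPM at 2 h and 78.8, 72.3 and 61.2 CPM at 4 h, against 87.2 to 94.5 CPM in the 4 h controls. The groups did not overlap, and the rise of 0.85 ± 0.09 (adjusted p = 3.5e-07, edgeR) left it 0.36 ± 0.09 below the controls on the log2 scale. The lysosomal phospholipase gene PLA2G15 went from 3.20 to 5.07 CPM at 2 h to 7.25 to 12.7 CPM at 4 h, a change of 1.23 ± 0.18, and was no longer called against Neg1 and Neg2 (-0.11 ± 0.17, adjusted p = 0.648, edgeR). GADD45B, a growth arrest and stress gene, went from 5.07 ± 1.43 (SD, n = 4) to 9.35 ± 0.539 CPM (SD, n = 3). The G1/S cyclin CCNE2 rose from 19.0 ± 1.4 to 27.6 ± 1.61 CPM, below the 4 h controls at 40.5 ± 2.20 CPM, a rise of 0.54 that was 0.36 and not called in counts scaled by transcript length (adjusted p = 0.118, edgeR). Of the G1/S and replication list, with 28 tested, 9 genes rose and 6 fell, beside 10.3% and 11.6% of all genes, and 5 rose and 2 fell in counts scaled by transcript length. In it, 6 of the risers were recovering: CCNE1, CCNE2, E2F2, CHAF1A, CDC25A and CDC6.

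Some of these genes overshot. MCL1, the anti-apoptotic BCL2 family member that is a common readout of CDK9 inhibition (chromosome 1, 150574551 to 150579738), lay at 634, 604, 626 and 587 CPM at 2 h and at 875, 860 and 808 CPM at 4 h. Controls were at 662 to 694 CPM at 2 h and 677 to 692 CPM at 4 h, so the early libraries were all below and the late ones all above. The rise was 0.47 ± 0.05 (adjusted p = 3.5e-07, edgeR). The early fall was small (-0.14 ± 0.05, adjusted p = 0.0258, edgeR), and its place in the class held in 12 of the 15 fits that left out 1 library. At 100 nM and 2 h MCL1 was lower, at 384, 454 and 456 CPM (-0.64, adjusted p = 3.27e-10, edgeR). At 10 nM and 2 h it was at 808 and 762 CPM, above the controls, a difference that was not tested. A level above the controls was thus not confined to 4 h. CDKN1A, which encodes the CDK inhibitor p21, moved from 14.6, 15.8, 12.7 and 16.2 CPM to 25.7, 30.0 and 24.6 CPM, with controls at 17.1 to 20.7 CPM at 2 h and 19.0 to 23 CPM at 4 h. It changed from -0.38 ± 0.10 against Neg1 and Neg2 at 2 h to 0.39 ± 0.10 at 4 h. PLEKHG1 went from 12.8 ± 1.95 to 29.4 ± 4.65 CPM, from below the controls to above them. Its rise of 1.20 ± 0.11 was 0.62 and not called in counts scaled by transcript length (adjusted p = 0.143, edgeR). INKA2 and ZNF324B also ranked among the largest rises of the class, but kept their place in 4 and 9 of those 15 fits.

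Promoters of the genes that fell and rose again carried the cyclic AMP response element, TGACGTCA, in 25 of 354 cases (7.06%). This motif reads the same on both strands and was sought from 250 bases before to 50 bases after the RefSeq start (GRCh38.p14). Its share was 3.18% among 10430 protein-coding genes tested and 1.98% among all 27305 promoters of the table. The other classes had 2.85 to 5.95%, the highest in genes that rose and then fell (11 of 185). The median GC content was 66.7% in promoters of genes that fell and rose again and 64.7% in those of all protein-coding genes tested. The median log2 CPM was 5.50 in the genes that fell and rose again and 3.08 in all genes tested. The part of GC content and of level was not tested. To show the element in place, 60 bases are printed, 5′ to 3′ on the gene's strand with the element in capitals, for the 3 genes of the class with the largest rise, the element before the start and a mean log2 CPM of 5 or more, and for the AP-1 gene JUND. UBAP1 (chr9:34178972-34179031, plus strand) encodes an endosomal sorting protein, CTDP1 (chr18:79679743-79679802, plus) a phosphatase of the polymerase II tail, and ZDHHC7 (chr16:85011536-85011595, minus) a palmitoyltransferase. The JUND window is chr19:18281789-18281848 on the minus strand.
UBAP1: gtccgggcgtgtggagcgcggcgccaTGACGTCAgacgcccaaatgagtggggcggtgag
CTDP1: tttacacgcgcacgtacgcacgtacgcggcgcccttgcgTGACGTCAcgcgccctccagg
ZDHHC7: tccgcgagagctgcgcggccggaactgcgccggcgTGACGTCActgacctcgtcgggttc
JUND: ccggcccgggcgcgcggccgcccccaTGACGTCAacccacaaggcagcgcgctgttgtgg
The element begins 45, 21, 25 and 200 bases before the start, in that order. A match is a description of the sequence and not evidence of binding.

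The genes with these windows moved as follows. UBAP1 lay at 41.8, 44.8, 41.0 and 41.2 CPM at 2 h and at 76.0, 69.0 and 62.5 CPM at 4 h, a rise of 0.71 ± 0.07 (adjusted p = 2.69e-08, edgeR). CTDP1 went from 43.2 ± 2.31 to 68.6 ± 5.88 CPM and ZDHHC7 from 31.6 ± 2.12 to 48.1 ± 2.78 CPM. UBAP1 and CTDP1 ended above Neg1 and Neg2 (0.42 ± 0.06 and 0.34 ± 0.07), and ZDHHC7 was no longer called (0.08 ± 0.08). JUND rose from 127 to 136 CPM at 2 h to 148 to 180 CPM at 4 h, 0.30 ± 0.06. At 4 h it was not called against Neg1 and Neg2 (-0.10 ± 0.06) but was 0.38 lower than DMSO on the log2 scale (adjusted p = 3.09e-05, edgeR), where DMSO lay at 209 to 215 CPM and Neg1 and Neg2 at 169 to 179 CPM.

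The sequence motif TTCCNNGAA, the core of the site that BCL6 shares with STAT factors, was sought on both strands in the same windows. It was in 11 of 354 promoters (3.11%) that fell and rose again and in 7 of 262 (2.67%) with a late rise, against 4.34% of protein-coding genes tested. The promoter of BCL6 holds a match that begins 28 bases before its start (chr3:187745469-187745528, minus strand), shown because BCL6 is the factor that the compound engages.
BCL6: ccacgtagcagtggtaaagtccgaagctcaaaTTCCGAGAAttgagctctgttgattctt

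A smaller group of 226 genes (1.27%) had risen by 2 h and then fell, with a median effect of 0.25 at 2 h and -0.09 at 4 h. Of these, 154 were no longer called at 4 h, 11 were still above Neg1 and Neg2, and 61 had dropped below them. PRKCE, protein kinase C epsilon (chromosome 2, 45651345 to 46187990), stood at 49.0 to 56.9 CPM in the 2 h controls. With CDK-TCIP1 it was at 77.6, 83.5, 75 and 71.8 CPM at 2 h and at 35.6, 35.8 and 35.3 CPM at 4 h, against 47.8 to 51.9 CPM in the 4 h controls. Every early library was above the controls and every late one below them. The fall was -1.12 ± 0.07 (adjusted p = 2.82e-11, edgeR), from 0.52 ± 0.06 to -0.50 ± 0.07 against Neg1 and Neg2.

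BACH2, a repressor of plasma cell differentiation (chromosome 6, 89926529 to 90296908), moved the same way, at 212, 209, 205 and 220 CPM and then 136, 132 and 127 CPM, with 4 h controls at 153 to 166 CPM. Its fall of 0.69 ± 0.05 on the log2 scale was -0.42 in counts scaled by transcript length, where it was not called (adjusted p = 0.0585, edgeR). SETBP1, a SET-binding protein, went from 36.8 ± 2.48 to 18.8 ± 1.79 CPM, and the CREB coactivator CRTC1 from 17.5 ± 1.45 to 8.25 ± 0.963 CPM. At 100 nM and 2 h all 4 were higher than Neg1 and Neg2, by 0.69, 0.43, 1.00 and 1.02. The calcium channel gene ITPR1 and the membrane protein gene FNDC3B also fell by about as much, but ITPR1 kept its place in 6 of the 15 fits and FNDC3B in 11, and neither fall was called in counts scaled by transcript length (-0.63 and -0.38).

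**Figure D2:**
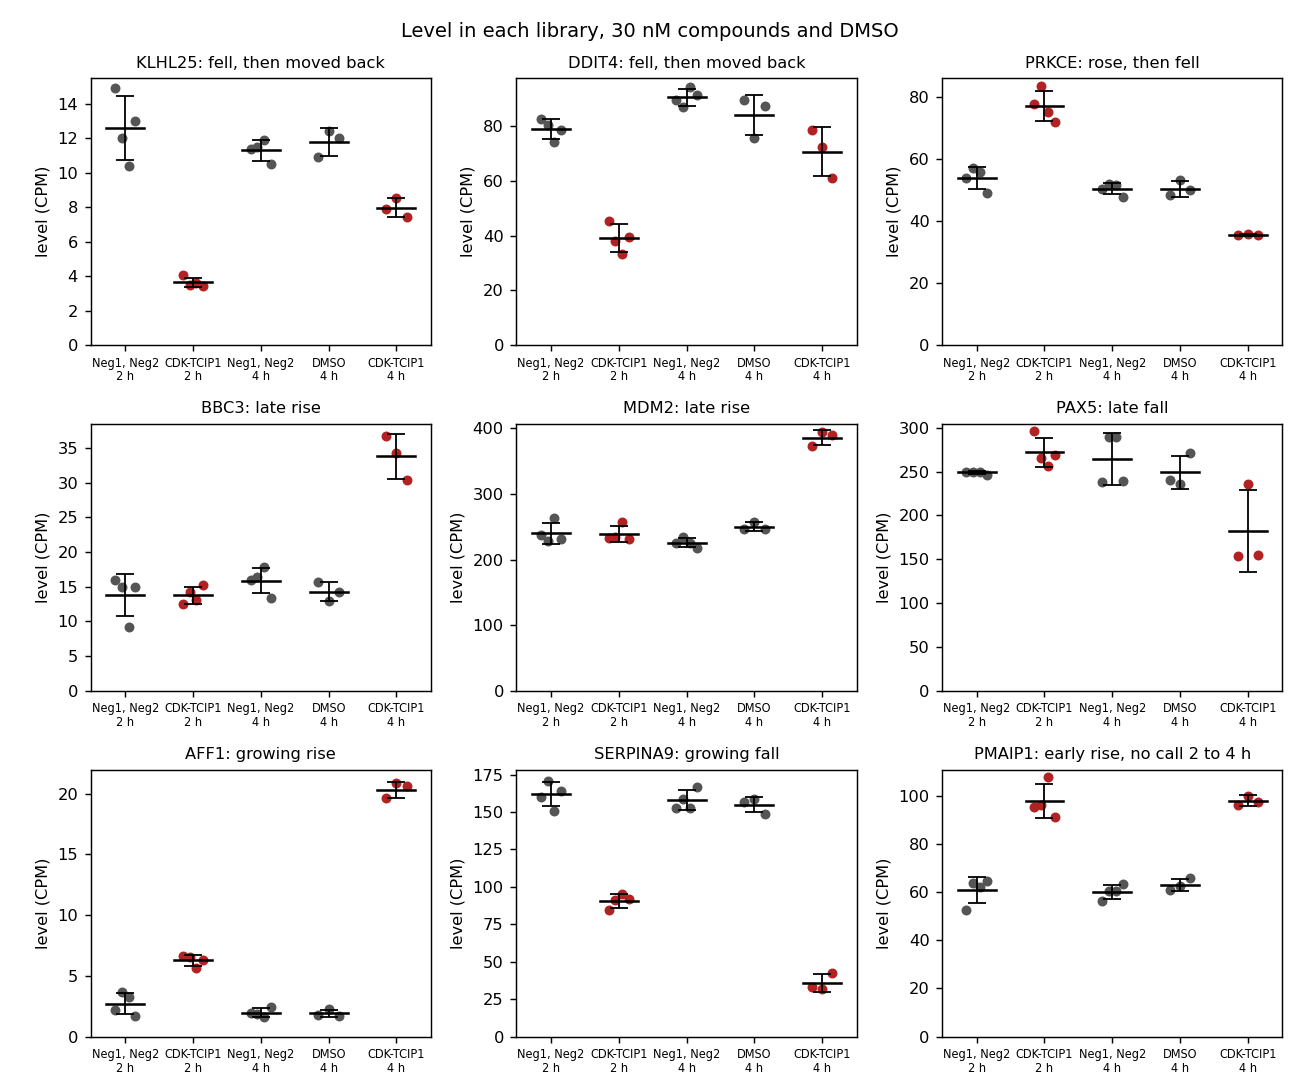
Level in CPM (y axis, from 0) in each library (points) with the group mean and SD (bars), for 9 genes. Red points are CDK-TCIP1 30 nM and grey points are Neg1 with Neg2 or DMSO. KLHL25 and DDIT4 fell by 2 h and were higher at 4 h, PRKCE rose and then fell below its controls, BBC3, MDM2 and PAX5 moved after 2 h, AFF1 and SERPINA9 went on in 1 direction, and PMAIP1 lay at 97.9 and 98.0 CPM.

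Gene span was set beside these changes. Among 440 protein-coding genes that span over 300 kb, the median effect against Neg1 and Neg2 was 0.24 at 2 h and 0.09 at 4 h, with a median change of -0.19 from 2 to 4 h. Of these genes 127 fell (28.9%) and 14 rose (3.18%) from 2 to 4 h. In the recovering class, 52 of them (11.8%) had risen and then fell, against 0.63 to 1.54% in each group of shorter genes. PRKCE spans 537 kb, SETBP1 388 kb and BACH2 370 kb. Genes of 100 to 300 kb differed: their median effect was -0.02 at 2 h and -0.07 at 4 h, and 128 of 1997 (6.41%) were late falls. With counts scaled by transcript length, the over 300 kb genes that could be tested (384) had medians of 0.19, -0.19 and 0.01 at 2 h, from 2 to 4 h, and at 4 h. From 2 to 4 h 84.4% of them kept their sign, and 50 were called with the same sign. Gene span also moves with level and with the number of transcripts that share reads, and their part was not tested.

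**Figure D3:**
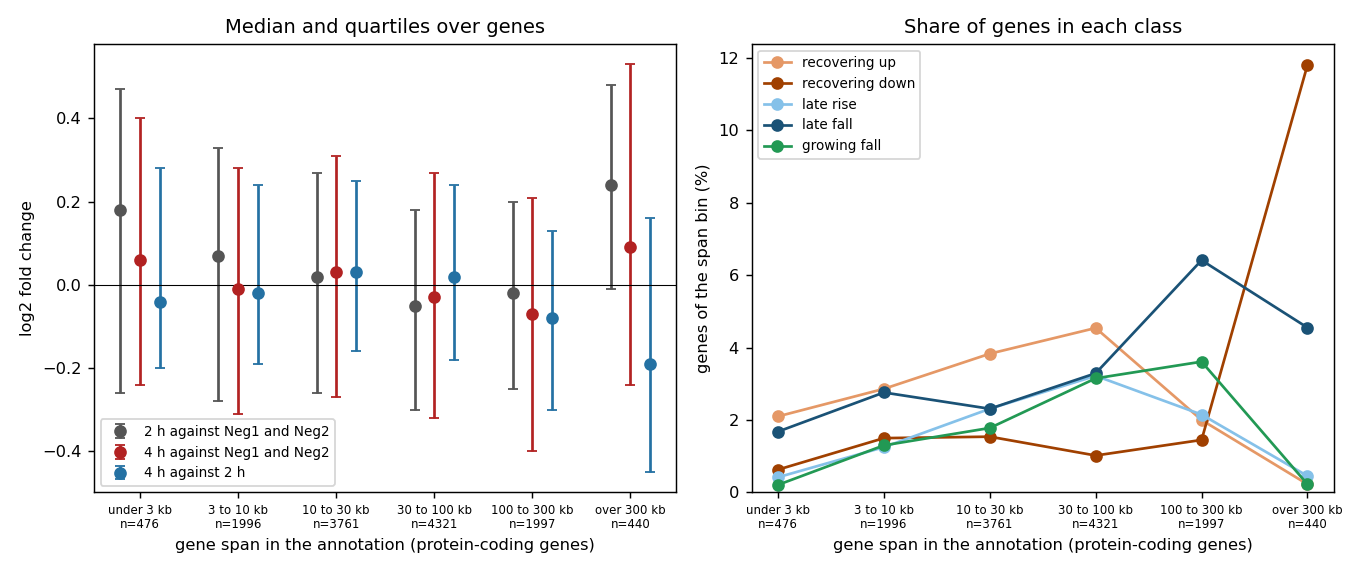
Left, median log2 fold change (points) with quartiles (bars) over protein-coding genes in 6 bins of gene span (x axis, n below each). Right, percent of the genes of each bin in 5 classes. The bin over 300 kb has the highest share of genes that rose and then fell (11.8%), and the bin of 100 to 300 kb the highest share of late falls (6.41%).

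The late class held 303 rises (1.71%) and 470 falls (2.65%). At 100 nM and 2 h the genes with a late rise had a median effect of -0.23, and those with a late fall 0.09. Targets of p53, the DNA damage and stress factor, were mostly higher at 4 h. Of 25 tested targets in the list, 20 were higher at 4 h than at 2 h and 1 was lower, with a median change of 0.67, against 10.3% and 11.6% of all genes and a median of 0.00. Earlier results of these data were known when the list was written, so the count is a description. BBC3, the gene of the pro-death protein PUMA (chromosome 19, 47220822 to 47232766), was at 12.5, 14.2, 13.1 and 15.2 CPM at 2 h, inside the control range of 9.26 to 16 CPM. It reached 36.8, 34.3 and 30.4 CPM at 4 h, when controls were at 13.4 to 17.8 CPM. The effect was 0.00 ± 0.12 at 2 h and 1.09 ± 0.13 at 4 h, with a rise of 1.30 ± 0.13 between them (adjusted p = 7.46e-08, edgeR).

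MDM2, the ubiquitin ligase that p53 induces and that degrades it (chromosome 12, 68808176 to 68850686), lay at 233, 235, 257 and 231 CPM at 2 h and 373, 395 and 390 CPM at 4 h. The early libraries fell within the control range of 229 to 263 CPM and the late ones lay above all controls, for a change of 0.69 ± 0.05 (adjusted p = 2.95e-10, edgeR). The death receptor gene FAS went from 10.1, 9.79, 9.62 and 6.04 CPM to 21.8, 19.6 and 23.2 CPM, a rise of 1.27 ± 0.13. It overlaps ACTA2 on the opposite strand, and ACTA2 rose too, from 2.34 to 3.56 CPM to 6.64 to 8.46 CPM, so which of them a shared read came from is uncertain. The polymerase POLH, which copies past DNA lesions, rose from 60.3 ± 3.37 to 106 ± 6.63 CPM. TIGAR, a regulator of glycolysis, rose from 48.9 ± 9.95 to 105 ± 4.37 CPM, and the repair gene XPC from 64.4 ± 5.39 to 103 ± 8.38 CPM. None of these 6 was called at 30 nM and 2 h. At 100 nM and 2 h, FAS, MDM2 and POLH were lower than Neg1 and Neg2, by -0.59, -0.34 and -0.37 (adjusted p of 0.00184, 3.45e-06 and 0.000198, edgeR).

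Other p53 targets had started earlier and grew. ZMAT3, an RNA-binding protein (chromosome 3, 179017223 to 179072279), went from 120, 130, 128 and 127 CPM to 205, 205 and 202 CPM, with 4 h controls at 71.6 to 74.8 CPM. Its effect rose from 0.67 ± 0.05 to 1.48 ± 0.05. TNFRSF10B, a receptor for the death ligand TRAIL, went from 106 ± 4.92 to 181 ± 16.8 CPM, the autophagy and stress gene TP53INP1 from 131 ± 3.78 to 253 ± 9.26 CPM and SESN1, an inhibitor of mTORC1, from 17.2 ± 2.21 to 37.3 ± 2.10 CPM. DDB2, CCNG1 and AEN grew as well, by 0.47, 0.36 and 0.32 on the log2 scale. CDKN1A, PLK3, SESN2, BTG2 and TRIAP1 were recovering, and GADD45A (0.71) and FDXR (0.40) rose without a class. BTG2 (-0.56) and SESN2 (-0.36) were still below Neg1 and Neg2 at 4 h, and kept their place in 7 and 5 of the 15 fits without 1 library. CD82, a tetraspanin, was the 1 target that fell, by 0.46 ± 0.09, and PMAIP1, BAX, TNFRSF10C and RRM2B were not called.

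**Figure D4:**
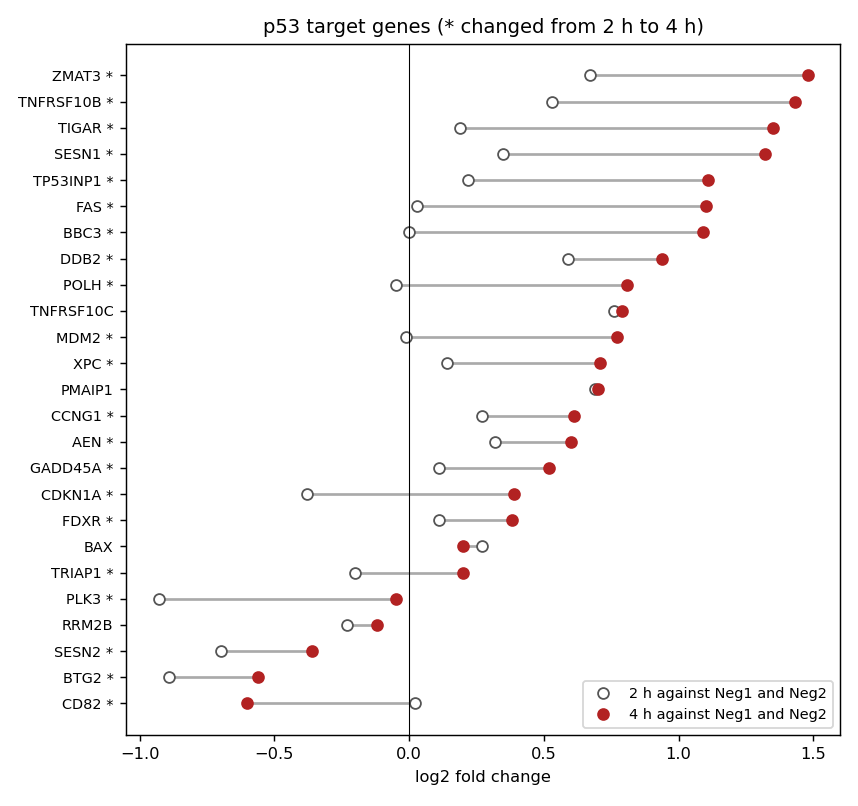
Log2 fold change of CDK-TCIP1 30 nM against Neg1 and Neg2 at 2 h (open circles) and 4 h (red circles) for the 25 p53 targets tested, ordered by the 4 h value. A star marks the 21 genes called between 2 and 4 h, of which CD82 moved to the left and 20 moved to the right.

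Outside this list, late rises included the following genes. FOXO3, a forkhead factor of arrest and apoptosis genes, was at 12.4, 13.1, 11 and 14.5 CPM at 2 h and at 20, 23.3 and 22.6 CPM at 4 h, above all controls (13.2 to 16.2 CPM). Its rise was 0.79 ± 0.11 (adjusted p = 8.66e-06, edgeR). It was not among the genes flat at 2 h, with an effect of -0.23 ± 0.10 at 30 nM (adjusted p = 0.0852, edgeR). At 100 nM and 2 h the effect on FOXO3 was -0.52 (adjusted p = 0.000637, edgeR), and without 30 nM 2 h replicate 4 its class was recovering. BCL2L11, which encodes BIM, rose from 149 ± 6.28 to 194 ± 10.0 CPM (0.37 ± 0.06), a call that was lost in counts scaled by transcript length (0.21, adjusted p = 0.254, edgeR). At 100 nM and 2 h the effect on BCL2L11 was -0.17 (adjusted p = 0.0296, edgeR). Of 30 genes that BCL6 is described to repress, 7 rose and 3 fell between 2 and 4 h, beside 10.3% and 11.6% of all genes, with a median of 0.18. In counts scaled by transcript length 3 rose and 1 fell. THEMIS2, a B cell signalling protein, went from 12 ± 1.80 to 23.3 ± 3.63 CPM (0.95 ± 0.15), and this call too was lost with length scaling (0.67, adjusted p = 0.144, edgeR). ZBED6 had the largest late rise by the naming rule (1.32 ± 0.19). It lies inside another gene, ZC3H11A, so its reads are uncertain, and its libraries spread from 31.1 to 50 CPM at 2 h and from 78.7 to 118 CPM at 4 h.

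Late falls took in B cell and ribosome biogenesis genes. PAX5, the factor that sets B cell identity (chromosome 9, 36833275 to 37034185), was at 296, 266, 256 and 269 CPM at 2 h and at 154, 236 and 155 CPM at 4 h. The late group did not overlap the early one or its controls (238 to 290 CPM), but replicate 2 lay just under them. The fall was -0.58 ± 0.11 (adjusted p = 0.000509, edgeR). The metallothionein MT1X went from 11 ± 1.47 to 5.06 ± 0.272 CPM. PIBF1, a centrosome protein, went from 15.9 ± 0.792 to 7.34 ± 0.348 CPM, -1.11 ± 0.11, which was -0.69 and not called with length scaling (adjusted p = 0.101, edgeR). CD72 fell from 5.06 to 7.15 CPM to 2.55 to 3.81 CPM and kept its place in 8 of the 15 fits. The largest late fall by the rule was a read-through locus on chromosome 19 (ENSG00000142539), at 1.14 to 7.33 CPM at 2 h and at 0.682, 0 and 0 CPM at 4 h, and it shares reads with its neighbours.

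Of 34 MYC targets and ribosome biogenesis genes, 23 fell and 3 rose between 2 and 4 h, beside 11.6% and 10.3% of all genes. The median change of the list was -0.23. In counts scaled by transcript length 14 fell. Falls of this list were spread over the classes: 7 were late, among them the pseudouridine synthase DKC1 (-0.44) and the polyamine enzyme ODC1 (-0.37), 4 were growing, among them the pseudouridine synthase PUS7 (-0.68) and the transferrin receptor TFRC (-0.43), and 5 had been higher at 2 h, among them nucleolin, NCL, and LDHA (both -0.27). NCL was at 1630 to 1710 CPM at 2 h and 1330 to 1430 CPM at 4 h, and its place as recovering held in 4 of the 15 fits. RRS1, PPAN and NOP2 rose, by 0.37, 0.37 and 0.20.

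MYC itself was lower at both times. It was at 129 to 146 CPM in the 2 h controls, at 58.3, 74.7, 76.0 and 68.0 CPM after 2 h of CDK-TCIP1 and at 55.8, 62.4 and 60.2 CPM after 4 h. The CDK-TCIP1 groups overlapped and the step from 2 to 4 h was not called (-0.22 ± 0.08, adjusted p = 0.0667, edgeR). It was called by DESeq2 (adjusted p = 0.0326), with no filter on low counts (adjusted p = 0.0129, edgeR), with the replicate number as a block (adjusted p = 0.0244, edgeR) and without 2 h replicate 1 (-0.29, adjusted p = 0.00824, edgeR). Its effect against Neg1 and Neg2 was -0.97 ± 0.08 at 2 h and -1.12 ± 0.08 at 4 h.

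Growing genes comprised 151 rises (0.851%) and 318 falls (1.79%). AFF1, a scaffold of the super elongation complex that brings P-TEFb to genes (chromosome 4, 86935002 to 87141054), was at 1.72 to 3.66 CPM in the 2 h controls. It stood at 6.62, 6.51, 5.67 and 6.3 CPM after 2 h and at 19.6, 20.9 and 20.6 CPM after 4 h, with no overlap. The rise was 1.70 ± 0.19 (3.24-fold, adjusted p = 6.45e-07, edgeR), and 1.42 with an adjusted p of 0.0981 (edgeR) in counts scaled by transcript length. TNFRSF10D, a decoy receptor for TRAIL, went from 14.3 ± 0.568 to 28.4 ± 3.62 CPM, against 3.95 ± 0.653 CPM in the 4 h controls. TNFRSF10A, a further TRAIL receptor, rose by 0.42 ± 0.07. Of 19 genes in the list that joins death receptors with caspases, 6 were higher at 4 h and 1 was lower, beside 10.3% and 11.6% of all genes. The cyclin CCNL2, which pairs with splicing-linked kinases, went from 143 ± 9.87 to 208 ± 14.8 CPM, and the splicing factor SRSF4 from 188 ± 11.1 to 267 ± 11.1 CPM. SLC30A1, a zinc exporter, rose by 0.91 ± 0.10 while MT1X, whose product binds zinc, fell.

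Some germinal centre and B cell receptor genes were among the falls that went on. SERPINA9, the germinal centre serpin (chromosome 14, 94462717 to 94479689), went from 151 to 171 CPM in controls to 84.4, 91.0, 95.5 and 91.7 CPM at 2 h and 32.9, 32.0 and 42.8 CPM at 4 h. The groups were fully apart, with a fall of 1.34 ± 0.08 on the log2 scale (adjusted p = 1.44e-11, edgeR) and an effect of -2.14 ± 0.08 at 4 h. Of 24 germinal centre genes, 9 fell and 3 rose between 2 and 4 h, beside 11.6% and 10.3% of all genes. RGS13, LMO2 and POU2AF1 fell by 0.46, 0.43 and 0.44, and CD38, MYBL1 and ELL3 rose. In the B cell receptor pathway 9 of 21 genes fell and 1 rose, and of the falls only BLNK and PTPN6 were growing. The median effect of this list against Neg1 and Neg2 was 0.15 at 2 h and -0.02 at 4 h. The adaptor BLNK went from 58.3, 60.1, 61.7 and 60.5 CPM to 40.9, 41.2 and 39.6 CPM, with controls at 87.9 to 94.8 CPM. PLCG2, the 1 member that rose (0.16 ± 0.04), kept its place in 6 of the 15 fits. Without 4 h replicate 1 the count of falls was 5, and it was 5 in counts scaled by transcript length.

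Some genes of transcription and splicing were growing falls, although their lists moved both ways. There were 4 rises and 4 falls among 16 transcription kinases with their cyclins, Mediator subunits and POLR2A, and 4 and 4 among 21 splicing kinases with SR proteins. Over all genes tested 10.3% rose and 11.6% fell. POLR2A, the catalytic polymerase II subunit (chromosome 17, 7484366 to 7514616), was at 253, 219, 236 and 222 CPM at 2 h and 160, 139 and 152 CPM at 4 h. Controls were at 293 to 325 CPM at 4 h, so both groups were below them and the late group the lower, by 0.63 ± 0.07 (adjusted p = 2.32e-07, edgeR). SRSF3, a splicing factor of the SR family, went from 522 ± 30.8 to 320 ± 26.8 CPM, and SRSF1 fell by 0.25. HEATR3, an import factor for ribosomal protein, went from 28.2 ± 3.85 to 12.9 ± 0.946 CPM, ZPBP2, a sperm acrosome gene, from 9.85 ± 0.937 to 3.86 ± 0.920 CPM and PRIMA1, an anchor of acetylcholinesterase, from 8.97 ± 0.621 to 3.93 ± 1.38 CPM. Among 35 genes of P-TEFb and elongation, 9 rose and 6 fell, and 3 rose and 2 fell in counts scaled by transcript length. EAF2, a partner of ELL proteins, fell by 0.68 ± 0.13, whereas ELL and NELFA, a subunit of the pausing factor NELF, were recovering (0.45 and 0.38).

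PMAIP1, CDKN1B, HEXIM1, JUN and BCL6 had changed by 2 h and were not called between 2 and 4 h in the fit reported. PMAIP1, which encodes the BH3-only protein NOXA, was at 95.4, 96.3, 108 and 91.4 CPM at 2 h and at 96.1, 100 and 97.5 CPM at 4 h, with controls at 52.8 to 64.5 CPM and 56.3 to 63.4 CPM. The groups overlapped, and the difference was 0.00 ± 0.07 (adjusted p = 0.985, edgeR). CDKN1B, the CDK inhibitor p27, was at 89.1 ± 8.88 and 101 ± 6.51 CPM (0.18 ± 0.08, adjusted p = 0.100, edgeR), a step that was called without 2 h replicate 1 (0.25, adjusted p = 0.0231, edgeR) and in the fit of the compared groups alone (0.19, adjusted p = 0.0471, edgeR). The P-TEFb inhibitor HEXIM1 was at 10.1 ± 0.880 and 10.9 ± 0.141 CPM, below 26.6 ± 1.78 CPM in the 4 h controls, and the AP-1 gene JUN at 7.18 ± 0.512 and 7.0 ± 0.282 CPM, below 16.2 ± 1.51 CPM. BCL6 was at 332 ± 6.55 and 342 ± 9.02 CPM (0.04 ± 0.04, adjusted p = 0.569, edgeR). Its effect against Neg1 and Neg2 was -0.20 ± 0.04 at 2 h and -0.14 ± 0.04 at 4 h (adjusted p of 0.000231 and 0.0117, edgeR). CDK9 rose by 0.25 ± 0.08, a call that was lost in 4 of the 7 fits without 1 CDK-TCIP1 library, and its cyclin CCNT1 by 0.25 ± 0.06. FOS fell from 7.54 to 8.73 CPM to 3.96 to 4.69 CPM, and was called against Neg1 and Neg2 at neither time.

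**Figure D5:**
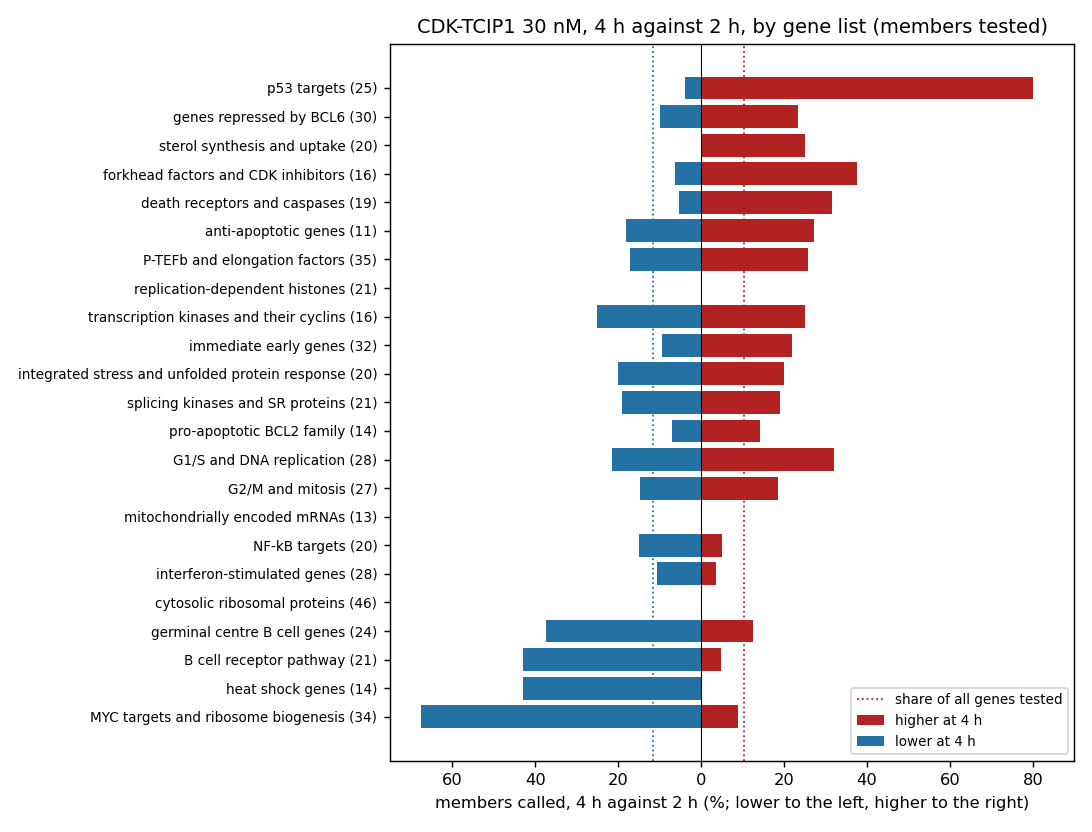
Percent of the tested members of each gene list (number in parentheses) that were called higher (red, right) or lower (blue, left) at 4 h than at 2 h, ordered by median change. Dotted lines mark the 10.3% and 11.6% of all genes tested, the p53 targets are highest at 20 of 25 and the MYC targets with ribosome biogenesis lowest at 23 falls of 34.

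The other lists moved less or in both directions. Over all genes tested, 10.3% rose and 11.6% fell from 2 to 4 h. Against Neg1 and Neg2, 19.1% of all genes were higher at 2 h and 18.5% at 4 h. No cytosolic ribosomal protein gene of 46 was called between 2 and 4 h by edgeR in the fit reported or by DESeq2, although all 46 were higher than Neg1 and Neg2 at 2 h and 33 at 4 h. None of 13 mitochondrially encoded mRNAs was called in them either, with 11 higher at 2 h and 12 at 4 h. With no filter on low counts edgeR called 3 of the ribosomal and 2 of the mitochondrial mRNAs lower. Among 21 replication-dependent histones none was called in the fit reported, and 1 was higher by DESeq2 and by edgeR on the compared groups alone. Heat shock genes fell in 6 of 14 cases with no rise, led by DNAJA1 (-0.33 ± 0.05), and 3 fell without 4 h replicate 1 and 2 with length scaling. Of 20 sterol genes 5 rose and none fell, a count of rises that was 1 in counts scaled by transcript length, 3 without 4 h replicate 1 and 8 without 2 h replicate 1. In the immediate early list 7 of 32 rose and 3 fell, and in that of forkhead factors and CDK inhibitors 6 of 16 rose and 1 fell. For the integrated stress and unfolded protein response it was 4 and 4 of 20, with DDIT4, SESN2, TRIB3 and PPP1R15A higher and PSAT1, HSPA5, HYOU1 and EDEM1 lower. G2/M genes gave 5 rises and 4 falls of 27, anti-apoptotic genes 3 and 2 of 11, and the pro-apoptotic BCL2 family 2 and 1 of 14. NF-kB targets (20) and interferon-stimulated genes (28) had 1 rise and 3 falls each. In counts scaled by transcript length the falls were 1 in each of the immediate early, stress, NF-kB and interferon lists and 2 among splicing kinases, transcription kinases had 2 rises and 1 fall, and G2/M genes had 1 rise.

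Zinc finger genes were noticed after their values were seen and are given as a description. Of 538 tested genes with a ZNF, ZSCAN or ZKSCAN symbol, which mostly encode DNA-binding repressors, 102 were higher at 4 h than at 2 h and 10 were lower, with 10.3% and 11.6% of all genes beside them and a median change of 0.21. Most of them were not called. At 2 h, 135 were lower and 76 higher than Neg1 and Neg2, beside 18% and 19.1% of all genes. At 4 h 59 were lower and 134 higher, beside 19.7% and 18.5% of all genes. They are a family with similar sequences, and estimated counts may divide reads among members.

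Markers of the B cell lineage were present in every library, with a summed level over 8 genes of 4530 to 4820 CPM at 2 h and 4040 to 4280 CPM at 4 h. Controls were at 3930 to 4330 CPM and 4170 to 4350 CPM, so the 2 h libraries were above theirs and the 4 h libraries overlapped theirs. Of these genes 5 fell between the times and none rose, beside 11.6% and 10.3% of all genes. The count of falls was 2 without 4 h replicate 1 or 4 h replicate 3. In bulk RNA a smaller number of cells of a type and less RNA per cell cannot be told apart. Of 8 T and NK cell markers 3 passed the filter, and CD3D, CD2, CD8A, NKG7 and GNLY did not. TRAC, the T cell receptor alpha constant segment, held most of their sum and went from 46.8, 45.3, 42.5 and 43.8 CPM to 23.1, 21.6 and 24.2 CPM, with controls at 52.1 to 57.7 CPM at 4 h. It fell by 0.96 ± 0.07 (adjusted p = 1e-09, edgeR). Of 6 myeloid markers only LYZ was tested, with 0.141 to 0.688 CPM in the 7 libraries, and of 5 erythroid markers only ALAS2, with 0.155 to 1.88 CPM. Among 9 epithelial and fibroblast markers 4 were tested. ACTA2 rose, DCN fell from 45.5 to 55.0 CPM to 32.8 to 38.4 CPM, and the defining markers EPCAM, KRT18, KRT19, COL1A1 and COL3A1 did not pass the filter.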

How the data were processed

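Poly(A) RNA was sequenced in paired ends. FastQC, cutadapt, kallisto and DESeq2 are named per the submitters' processing notes; the sources used here do not give versions, transcript set or strand setting. The authors deposited estimated counts and TPM for 227912 transcripts per library. The 205964 that matched GENCODE 29 (GRCh38) were summed to 58592 genes and rounded, and unmatched transcripts held 1.16 to 1.28% of counts. Deposited TPM served only the length-scaled alternative. Totals were 17396484 to 26373153. filterByExpr left 17743 genes. edgeR 4.0.16 (R 4.3.3) with TMM fitted all 23 libraries, with a coefficient per group and 14 residual degrees of freedom. P-values were adjusted by Benjamini-Hochberg over all genes. Replicates within the 30 nM CDK-TCIP1 groups at 2 h and 4 h differed by more than sampling noise (chi-square per degree of freedom 5.03 to 7.88). None of these was a repeat, and the other groups were not checked in this way.

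Members, classes, lists and naming rules were chosen with earlier results of these data known. Protein-coding genes with a mean log2 CPM of 2 or more and 2 h values apart from those at 4 h were named if among the 5 largest changes per class and direction. The largest called rise and fall of each list and 23 fixed genes were named as well, the latter whatever their values. A further 23 were added after their values were seen: JUND, UBAP1, CTDP1, ZDHHC7, POLH, CCNE2, XIAP, BIRC2, NCL, LDHA, BACH2, TNFRSF10B, ZMAT3, FOXO3, XPC, RGS13, MYBL1, E2F2, CDC25A, TNFRSF10A, SESN2, PLK3 and BTG2, and other list members are named as examples. A few genes picked this way are left out of the text. Alternatives were other size factors, DESeq2 1.42.0, no filter, length scaling, fewer groups, a replicate block, libraries left out and other controls or class rules.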

Additional observations from a re-analysis of the deposited data

Results flagged for a closer look

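The change from 2 to 4 h differed between CDK-TCIP1 and the comparison compounds for 2126 genes, by the test of that difference in edgeR, 996 of them toward higher and 1130 toward lower values after CDK-TCIP1.

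Among the 104 named genes, 10 had a single 30 nM 2 h library far from the other 3, a gap that chance gives in about 1 of 20 groups of 4. The low libraries were at 17 CPM for CCNE2, 104 CPM for CDC25A, 255 CPM for DNAJA1, 6.04 CPM for FAS, 5.77 CPM for IRF7 and 8.84 CPM for MT1X. The high ones were at 46.6 CPM for CTDP1, 346 CPM for CYCS, 257 CPM for MDM2 and 392 CPM for MYBL1. FAS, MDM2, MT1X, CCNE2, CTDP1 and DNAJA1 kept their class in all 15 fits without 1 library, CDC25A in 14, CYCS in 12, MYBL1 in 11 and IRF7 in 5.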

How the results depend on the processing

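With counts scaled by transcript length there were 1515 genes called between 2 and 4 h (725 higher, 790 lower), 3754 for the early effect, 3883 for the late effect and 465 for the difference of the time changes, with 114 recovering, 101 growing and 215 late genes. Of the reported members, 97 of 685, 95 of 469 and 141 of 773 were again in their class. Among genes named in the results, ACTA2, CCNT1, CD38, CDC25A, CDK9, FOS, INKA2, PLCG2, PLK3, PPP1R15A and ZNF324B kept their sign between 2 and 4 h with length scaling but were no longer called. With Neg1 alone as control there were 318 recovering, 249 growing and 507 late genes, and with Neg2 alone 247 growing genes. Without the requirement of a difference from Neg1 and Neg2 over time the classes held 1270, 852 and 1316 genes. With DMSO in place of Neg1 and Neg2 at 4 h besides, the late class held 1301. The recovering and growing classes do not use the 4 h controls under that rule, so their counts could not change. The 100 nM reading of the early effect, also without that requirement, gave 1823 recovering genes. A change of at least 0.5 on the log2 scale left 187, 154 and 200. In Neg1 and Neg2 over time the count was 9 by DESeq2, 196 with no filter and 1 with length scaling, and 0 to 113 in the fits without 1 library, with 113 genes without Neg2 2 h replicate 2 and 1 gene without Neg1 4 h replicate 2. In those 15 fits the counts ran from 3009 to 3933 between 2 and 4 h, 482 to 723 recovering, 369 to 422 growing and 564 to 828 late. Late rises were 191 in place of 303 without Neg2 4 h replicate 2. Same-numbered libraries of the 2 times correlated at 0.109, -0.0172 and 0.127, and differently numbered ones at -0.162 to 0.126. These ranges overlap, so whether the replicate numbers pair the samples is not settled. With the replicate block 3499 genes were called, with 590 recovering, 424 growing and 727 late. DESeq2 called 4116 genes between 2 and 4 h. Among the 104 named genes, no change from 2 to 4 h reversed its sign with a call in the refits. The runs with other controls or class rules were read for classes only.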
